A study of Mus musculus with 19 samples.

Results

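The chaperone and prefoldin genes are 88 of the 21887 protein-coding genes in the RefSeq annotation of the mouse build mm10. They were chosen by symbol alone: the Hsp families and Hsp90, the DnaJ families Dnaja, Dnajb and Dnajc, the chaperonin subunits Cct2 to Cct8 with Tcp1, and the numbered Pfdn genes. The rule uses no measured value, though it was set with earlier results of these data known. The symbols also took in Hspg2, which codes for perlecan, a heparan sulfate proteoglycan of basement membranes and no chaperone. The data are chromatin immunoprecipitation sequencing (ChIP-seq) of CBFA2T2, a corepressor of the MTG (ETO) family, in NE-4C cells, which are mouse neural stem cells of a line without p53. In the H3.3K27M cells H3f3a, a gene for histone H3.3, was knocked out and replaced by a stable, HA-tagged H3.3 whose lysine 27 is changed to methionine. They are compared with H3.3WT cells, knocked out for H3f3a in the same way and carrying an unmutated H3.3 with the HA tag instead. Of 19 libraries in the series, 2 gave the values used here, 1 CBFA2T2 ChIP per genotype with 8272 peaks in H3.3K27M and 6920 in H3.3WT. Cells that also lack Cbfa2t2 were not analysed here. Each genotype is a single library from an engineered line. No difference between them could therefore be tested, and all values below describe 2 libraries. Peaks do not measure expression, so neither the neural identity of the cells nor the activity of a gene was checked here.

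Molecular chaperones bind unfolded or half-made proteins and keep them from aggregating. Hsp70 proteins hold and release stretches of polypeptide in a cycle driven by ATP. DnaJ proteins bring substrates to them and trigger hydrolysis, and Hsp110 proteins exchange the nucleotide. Hsp90 acts later, on kinases, receptors and other nearly folded clients. Prefoldin hands new actin and tubulin chains to TRiC, the cytosolic chaperonin, which folds them in a closed chamber. Hsp60 and its lid Hsp10 do the same inside mitochondria. Heat shock factor HSF1 binds heat shock elements, repeats of GAA facing towards and away from each other, before many of these genes.

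A gene was counted as marked where the summit of a CBFA2T2 peak lay within 1 kb of either annotated end, and where several did so the one of highest −log10 q (significance after correction, from the authors' caller) stands for the gene. Boundary peaks marked 57 of the 88 members in H3.3K27M and 50 in H3.3WT, or 64.8% in H3.3K27M and 56.8% in H3.3WT. Over all protein-coding genes the shares were 28.6% in H3.3K27M and 24.8% in H3.3WT. All 50 members marked in H3.3WT were marked in H3.3K27M as well (56.8%, against 22.2% of all genes marked in both lists). The other 7 were marked in H3.3K27M alone, 7.95% of members against 6.39% of all genes, and 0 in H3.3WT alone, against 2.60% of all genes. With peaks of at least 5 fold the count in H3.3K27M alone became 8, only some of them the same genes, and that in H3.3WT alone 5. The remaining 31 members had no boundary peak in either list.

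Families differed in how many members were marked. All genes with an Hsp90 symbol (3 of 3) and both genes of the mitochondrial chaperonin (2 of 2) were marked in both lists. So were 9 of 10 genes of the TRiC group. The chaperonin genes share 1 peak. The H3.3WT mark of Hsp90ab1 was weak, at 3.88 fold and −log10 q of 2.47. A floor of 5 on −log10 q or on fold, or a 500 bp window, left it out. The DnaJ families followed with 30 of 45 in H3.3K27M and 26 of 45 in H3.3WT. The Hsp70 and Hsp110 family had 9 of 14 in H3.3K27M and 7 in H3.3WT, and the prefoldin genes 3 of 5 in H3.3K27M and 2 in H3.3WT. Small heat shock protein genes had a share below that of all genes, with 1 of 8 in both lists (12.5%). That share rests on few genes, and its difference from all genes was not tested. Proteasome subunit genes of the Psma to Psmd families, another class of protein quality control, were marked in 30 of 40 cases in H3.3K27M and 31 of 40 in H3.3WT. Mitochondrial translocase genes (Timm and Tomm) were marked in 20 of 25 cases in H3.3K27M and 21 in H3.3WT. Chaperone genes had the lowest share of these 3 gene classes in both lists, and the differences were not tested.

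**Figure D1:**
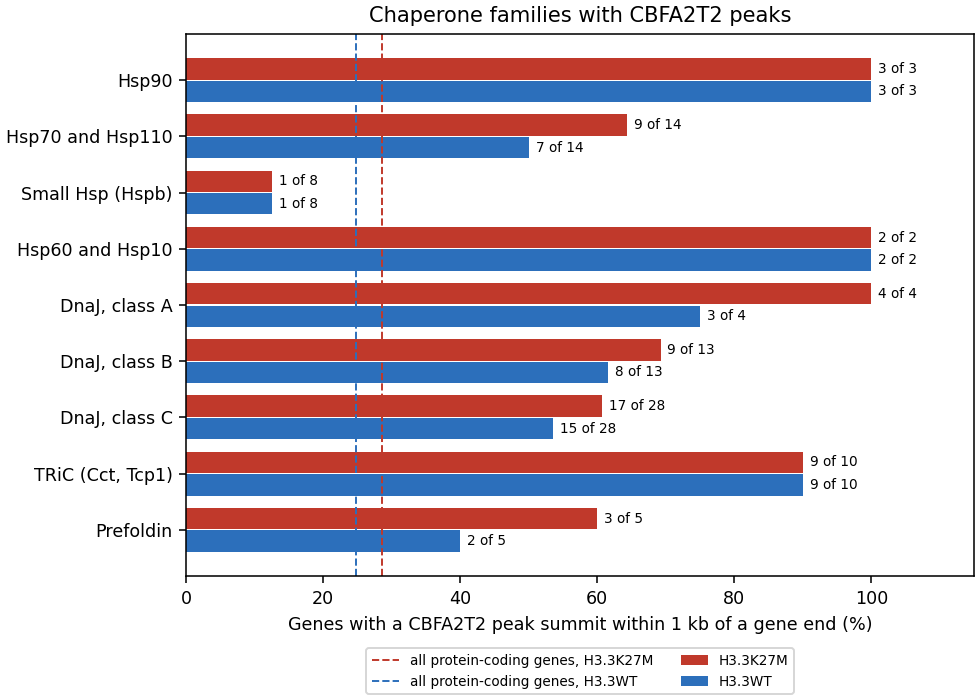
Share of genes per chaperone family with a CBFA2T2 summit within 1 kb of a gene end, in percent, for H3.3K27M (red, upper bar) and H3.3WT (blue, lower bar), with the numbers of genes beside the bars. Dashed lines give the shares over all protein-coding genes, 28.6% in H3.3K27M and 24.8% in H3.3WT; only the small Hsp genes lie below them among the 9 families drawn, at 1 of 8 in both lists.

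The promoters shown here are those of the highest boundary peaks, ranked by the larger fold of either list, whose summit fell inside the listed window (Pfdn6, Dnajc16, Dnajc17 and the Hspd1 and Hspe1 pair), of Hsph1, which had the highest H3.3K27M peak after Pfdn6, and of Hspa1a as a heat-inducible gene with no peak. The last was chosen after its values were seen. They are RefSeq sequences of GRCm38.p6, the assembly named mm10, from 250 bases before to 50 after a listed transcription start, read 5′ to 3′ along the gene. Capitals mark matches, on either strand, to the short motifs named below.
Pfdn6, chr17:33940294-33940593, minus strand: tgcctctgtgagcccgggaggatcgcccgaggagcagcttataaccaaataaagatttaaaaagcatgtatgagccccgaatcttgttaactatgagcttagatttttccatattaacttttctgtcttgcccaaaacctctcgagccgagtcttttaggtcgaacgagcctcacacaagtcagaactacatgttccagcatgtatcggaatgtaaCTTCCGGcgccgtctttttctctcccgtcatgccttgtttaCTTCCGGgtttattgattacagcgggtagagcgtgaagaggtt
Hspe1, chr1:55087898-55088197, plus strand: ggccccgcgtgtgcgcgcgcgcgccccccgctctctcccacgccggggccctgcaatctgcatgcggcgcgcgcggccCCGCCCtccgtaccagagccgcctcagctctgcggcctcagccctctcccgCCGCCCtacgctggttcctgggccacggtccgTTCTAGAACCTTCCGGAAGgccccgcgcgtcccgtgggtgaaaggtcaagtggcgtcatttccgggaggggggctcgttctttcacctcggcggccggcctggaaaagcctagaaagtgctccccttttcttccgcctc
Hsph1, chr5:149636287-149636586, minus strand: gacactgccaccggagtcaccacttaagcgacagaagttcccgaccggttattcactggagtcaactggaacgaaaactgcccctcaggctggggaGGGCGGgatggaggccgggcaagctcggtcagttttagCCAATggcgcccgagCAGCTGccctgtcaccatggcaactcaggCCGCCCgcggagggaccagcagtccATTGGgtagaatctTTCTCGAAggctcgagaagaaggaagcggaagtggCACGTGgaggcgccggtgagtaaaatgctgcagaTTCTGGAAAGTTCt
Dnajc16, chr4:141790595-141790894, minus strand: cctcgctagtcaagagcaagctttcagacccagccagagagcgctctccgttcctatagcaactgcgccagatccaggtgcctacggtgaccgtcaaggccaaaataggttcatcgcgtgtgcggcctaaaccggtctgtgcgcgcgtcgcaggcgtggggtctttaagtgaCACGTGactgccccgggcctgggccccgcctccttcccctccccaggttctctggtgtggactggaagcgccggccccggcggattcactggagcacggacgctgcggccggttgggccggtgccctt
Dnajc17, chr2:119208746-119209045, minus strand: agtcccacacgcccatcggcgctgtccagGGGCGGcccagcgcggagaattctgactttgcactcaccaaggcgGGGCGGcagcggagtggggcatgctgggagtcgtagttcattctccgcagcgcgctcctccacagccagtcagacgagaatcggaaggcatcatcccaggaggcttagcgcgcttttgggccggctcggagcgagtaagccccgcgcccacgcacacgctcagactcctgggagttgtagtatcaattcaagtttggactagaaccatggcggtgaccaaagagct
Hspa1a, chr17:34972107-34972406, minus strand: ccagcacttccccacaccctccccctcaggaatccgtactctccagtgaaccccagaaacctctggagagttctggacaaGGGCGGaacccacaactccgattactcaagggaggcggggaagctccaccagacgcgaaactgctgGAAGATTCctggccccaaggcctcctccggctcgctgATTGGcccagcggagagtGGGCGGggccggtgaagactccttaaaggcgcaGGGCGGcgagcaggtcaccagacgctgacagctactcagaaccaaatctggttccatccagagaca

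Positions below count the listed transcription start as 0 and give the first base of a match. The Pfdn6 window holds the ETS core CCGGAAG at -34 and 7, and its summits lay at -123 in H3.3K27M and -54 in H3.3WT. In Hspe1, 3 overlapping heat shock element cores at -89, -84 and -79 run into a pair of ETS cores at -80 and -77. The H3.3K27M summit lay upstream of that block at -117, and the H3.3WT summit within it at -78. The Hspd1 window covers largely the same DNA from the other strand. Hsph1 holds heat shock element cores at -33, 36 and 41, while its summit stood upstream of the printed window at -386 in both lists. Dnajc16 holds the E-box CACGTG at -78, with summits at -163 in H3.3K27M and -166 in H3.3WT. Dnajc17 holds only GC boxes among the motifs searched, at -221 and -176, and its summits lay at -33 in H3.3K27M and -45 in H3.3WT. Hspa1a holds a heat shock element core at -104, a CCAAT box at -67 and GC boxes at -170, -49 and -16.

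The member symbols took in 3 Hsp90 genes. Hsp90b1, the form of the endoplasmic reticulum, had the highest fold of them, 22.8 in H3.3K27M and 31.4 in H3.3WT. Fold is the enrichment of ChIP signal at the summit over local background that the authors' peak caller gave, without replicate error. Its peak (chr10:86705380-86706403 in H3.3K27M) had its summit 585 bp outside the gene in H3.3K27M and 559 bp in H3.3WT. The neighbouring gene Ttc41 was nearer, at 218 bp in H3.3K27M and 192 bp in H3.3WT. Hsp90aa1, the stress-inducible cytosolic form, had a peak of 6.36 fold in H3.3K27M and 5.87 in H3.3WT, with the summit 95 bp inside the gene in H3.3K27M and 94 bp in H3.3WT. Hsp90ab1, the constitutive cytosolic form, had low peaks. The H3.3K27M list held 3 there, with folds of 5.07, 4.83 and 3.60, and the H3.3WT list held 1 of 3.88 fold. The H3.3WT peak lay at the end facing Slc35b2, and only the H3.3K27M list had a summit at the opposite end, 366 bp inside the gene.

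Among Hsp70 and Hsp110 genes the nucleotide exchange factor gene Hsph1 led. Its peak (chr5:149635970-149637109 in H3.3K27M) had 39.7 fold in H3.3K27M, against 29.8 fold in H3.3WT, with the summit on the same base in both. Hspa13, a microsomal Hsp70-like gene, came next in H3.3K27M with 20.9 fold, and had 12.7 in H3.3WT, under Hspa9, Hspa4 and Hspa8. Hspa9, the mitochondrial Hsp70, had 19.0 fold in H3.3K27M and 15.4 in H3.3WT. Hspa5, the Hsp70 of the endoplasmic reticulum and a marker of its stress response, had 11.7 fold in H3.3K27M, against 5.64 fold in H3.3WT. Hspa8, the constitutive cytosolic Hsp70, ran the other way with 6.30 fold in H3.3K27M and 12.9 in H3.3WT, and its H3.3K27M peak was the widest of all members at 1610 bp. Hspa4, of the Hsp110 class, had 10.6 fold in H3.3K27M and 13.8 in H3.3WT. Hspa14, linked to the ribosome, had 4.90 fold in H3.3K27M and 3.69 in H3.3WT.

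A further pair of genes in this family, Hspa12a (3.73 fold) and Hspa12b (5.74 fold), was marked in H3.3K27M alone. Both are distant relatives of Hsp70. The nearest H3.3WT summit lay 522476 bp from Hspa12a and 28854 bp from Hspa12b. The heat-inducible genes Hspa1a and Hspa1b and the neighbouring Hspa1l had no boundary peak in either list. The summits nearest to Hspa1b stood 3889 bp away in H3.3K27M (10.0 fold) and 3827 bp away in H3.3WT (9.22 fold). Hspa1a and Hspa1b are near-identical copies, and their promoter windows matched at 296 of 300 bases (98.7%). How reads that fit both copies were placed is not given in the sources used here, and its part in the lack of a peak was not tested. Hspa2, known from meiotic germ cells, had its nearest summit 34053 bp away in H3.3K27M and 32725 bp in H3.3WT.

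Hspd1 and Hspe1, the chaperonin and its lid in mitochondria, stand head to head and shared 1 peak. It had 16.6 fold in H3.3K27M (chr1:55087561-55088567), against 18.9 fold in H3.3WT (chr1:55087508-55088465), with summits 39 bp apart. Both values lie in the highest 10% of their list by fold, which began at 13.0 in H3.3K27M and 14.6 in H3.3WT.

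All 8 genes for ring subunits of TRiC were marked in both lists. Cct4 had the highest fold, 15.0 in H3.3K27M and 16.8 in H3.3WT, with the summit 11 bp from the gene end in H3.3K27M and 27 bp in H3.3WT. Cct6a followed with 11.5 fold in H3.3K27M and 13.5 in H3.3WT, at the end it shares with Psph, a gene of serine synthesis. Cct8 had 7.63 fold in H3.3K27M and 8.26 in H3.3WT. Cct7 had 7.38 fold in H3.3K27M and 7.50 in H3.3WT. Values were close for Cct5 as well, at 7.16 fold in H3.3K27M and 6.25 in H3.3WT, and for Cct3, at 6.55 fold in H3.3K27M and 6.44 in H3.3WT. Tcp1 had 6.04 fold in H3.3K27M and 7.27 in H3.3WT. The lowest H3.3K27M value was that of Cct2, at 4.75 fold in H3.3K27M and 6.47 in H3.3WT. The ring subunits thus ranged from 4.75 to 15.0 fold in H3.3K27M and from 6.25 to 16.8 fold in H3.3WT. Cct6b, a relative of Cct6a known from testis, had 4.94 fold in H3.3K27M and 3.49 in H3.3WT, near the end of Zfp830. Cct8l1 had no boundary peak, and its nearest summit lay 11889 bp away in H3.3K27M and 11934 bp in H3.3WT.

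Prefoldin genes held both the highest peak of all members and members with none. Pfdn6 had 41.7 fold in H3.3K27M (chr17:33940056-33940870), against 61.6 fold in H3.3WT (chr17:33940011-33940836), in the gap to Wdr46. Pfdn5 had a weak peak at its transcription start, 4.58 fold in H3.3K27M, against 3.71 fold in H3.3WT. A stronger one, 5.63 fold in H3.3K27M and 8.28 in H3.3WT, lay at its other end beside Myg1 and represented the gene. Pfdn2 had 5.56 fold in H3.3K27M alone, 8 bp downstream of a listed start and 27 bp from its neighbour Nit1. The closest H3.3WT summit was 15642 bp from Pfdn2. Pfdn4 held an internal peak of 3.91 fold in H3.3K27M and 5.13 in H3.3WT, more than 1 kb from both ends. No summit came within 105830 bp of Pfdn1 in H3.3K27M or 105853 bp in H3.3WT. Vbp1, the sixth prefoldin subunit gene, is outside the symbols used and had no boundary peak either.

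DnaJ proteins of class A carry the full bacterial domain layout. The mitochondrial Dnaja3 had 8.89 fold in H3.3K27M and 12.0 in H3.3WT, the cytosolic Dnaja2 8.33 fold in H3.3K27M and 6.75 in H3.3WT, and Dnaja1 8.06 fold in H3.3K27M and 5.83 in H3.3WT. Dnaja4 had 7.81 fold in H3.3K27M alone, 30 bp downstream of a listed start. Its nearest H3.3WT summit was 18191 bp away.

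In class B the highest peak belonged to Dnajb12, a membrane protein of the endoplasmic reticulum, with 22.4 fold in H3.3K27M and 21.1 in H3.3WT. Dnajb6, a suppressor of aggregation, had 18.1 fold in H3.3K27M and 11.7 in H3.3WT. Dnajb11, a partner of Hspa5, had 7.39 fold in H3.3K27M and 18.5 in H3.3WT, in a narrow gap to Tbccd1. Dnajb1, the main heat-inducible partner of Hsp70, had only 4.18 fold in H3.3K27M and 6.25 in H3.3WT. Dnajb9, another endoplasmic reticulum gene, had 6.05 fold in H3.3K27M and 5.29 in H3.3WT. For Dnajb4 the values were 5.79 fold in H3.3K27M and 5.45 in H3.3WT, and for Dnajb14 4.95 fold in H3.3K27M and 7.67 in H3.3WT. Dnajb2 had peaks at both ends, and the one opposite the start was the higher, at 10.5 fold in H3.3K27M and 7.37 in H3.3WT. Dnajb5 was marked in H3.3K27M alone, by a weak peak of 3.79 fold and −log10 q of 3.07. The unmarked genes were Dnajb3, Dnajb7, Dnajb8 and Dnajb13, of which Dnajb3, Dnajb8 and Dnajb13 are known from testis or sperm.

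Class C genes share little beyond the J domain, and 17 of 28 were marked in H3.3K27M and 15 in H3.3WT. Dnajc17, a nuclear protein linked to splicing, had 22.2 fold in H3.3K27M and 20.2 in H3.3WT. Its summit lay 221 bp from an end of Zfyve19 in H3.3K27M and 233 bp in H3.3WT. Dnajc30, a mitochondrial protein gene, had 21.0 fold in H3.3K27M and 5.45 in H3.3WT, the pair of values farthest apart on a log scale among members marked in both lists. Its summits lay only 52 bp apart. Dnajc16 had 17.5 fold in H3.3K27M and 23.8 in H3.3WT. The import motor gene Dnajc19 had 13.3 fold in H3.3K27M and 16.0 in H3.3WT, and Dnajc11, of the mitochondrial inner membrane organising system, had 9.19 fold in H3.3K27M and 10.7 in H3.3WT. Dnajc8, a splicing gene, had 7.42 fold in H3.3K27M and 13.0 in H3.3WT. Dnajc2, a ribosome-associated chaperone gene, had 4.07 fold in H3.3K27M and 8.73 in H3.3WT. The H3.3K27M summit lay 21 bp outside Dnajc2 and 10 bp from an end of the proteasome gene Psmc2. The H3.3WT summit lay 61 bp inside Dnajc2. Dnajc9, which codes for a chaperone of histones H3 and H4, had 5.55 fold in H3.3K27M and 6.02 in H3.3WT.

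The other class C genes marked in both lists stayed under 9 fold. Dnajc7, a partner of Hsp70 and Hsp90, had 8.76 fold in H3.3K27M and 6.31 in H3.3WT. Dnajc10, a reductase of the endoplasmic reticulum, had 6.69 fold in H3.3K27M and 4.74 in H3.3WT, and Dnajc12, a partner of aromatic amino acid hydroxylases, 6.94 fold in H3.3K27M and 6.02 in H3.3WT. Dnajc24, of diphthamide synthesis, had 6.29 fold in H3.3K27M and the lowest H3.3WT value of any member, 3.28. Dnajc13, an endosomal protein gene, had 6.25 fold in H3.3K27M and 6.09 in H3.3WT, and Dnajc14 5.77 fold in both lists. Dnajc4 was represented by its start peak in H3.3K27M (4.53 fold, against 4.76 for that peak in H3.3WT). In H3.3WT a peak beside Vegfb, at its other end, was the stronger, with 4.12 fold in H3.3K27M and 6.13 in H3.3WT.

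Dnajc27 had the strongest of the peaks found in H3.3K27M alone, at 8.88 fold and −log10 q of 16.5, and Dnajc21, a ribosome assembly gene, one of the weakest at 4.23 fold and 3.79. No H3.3WT summit lay within 15412 bp of Dnajc21 or 37870 bp of Dnajc27. The 11 unmarked genes of class C include Dnajc5, the cysteine string protein of synaptic vesicles, and Dnajc6, auxilin of clathrin uncoating. They also include Dnajc3, an inhibitor of eIF2α kinases, whose nearest summit lay 805090 bp away in H3.3K27M and 800580 bp in H3.3WT.

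Small heat shock protein genes were marked only in the case of Hspb6. Its peak, 7.32 fold in H3.3K27M, against 4.91 fold in H3.3WT, had its summit 466 bp outside the gene in H3.3K27M and 557 bp in H3.3WT, nearer to Proser3. Hspb1, a widely expressed small Hsp, had no summit within 45303 bp in H3.3K27M or 45392 bp in H3.3WT. Hspb11, an intraflagellar transport gene despite its name, had its nearest summit 75185 bp away in H3.3K27M and 75164 bp in H3.3WT. Hspb9 lay just beyond the window, 1464 bp from a peak of 13.9 fold in H3.3K27M and 1449 bp from one of 5.51 fold in H3.3WT.

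**Figure D2:**
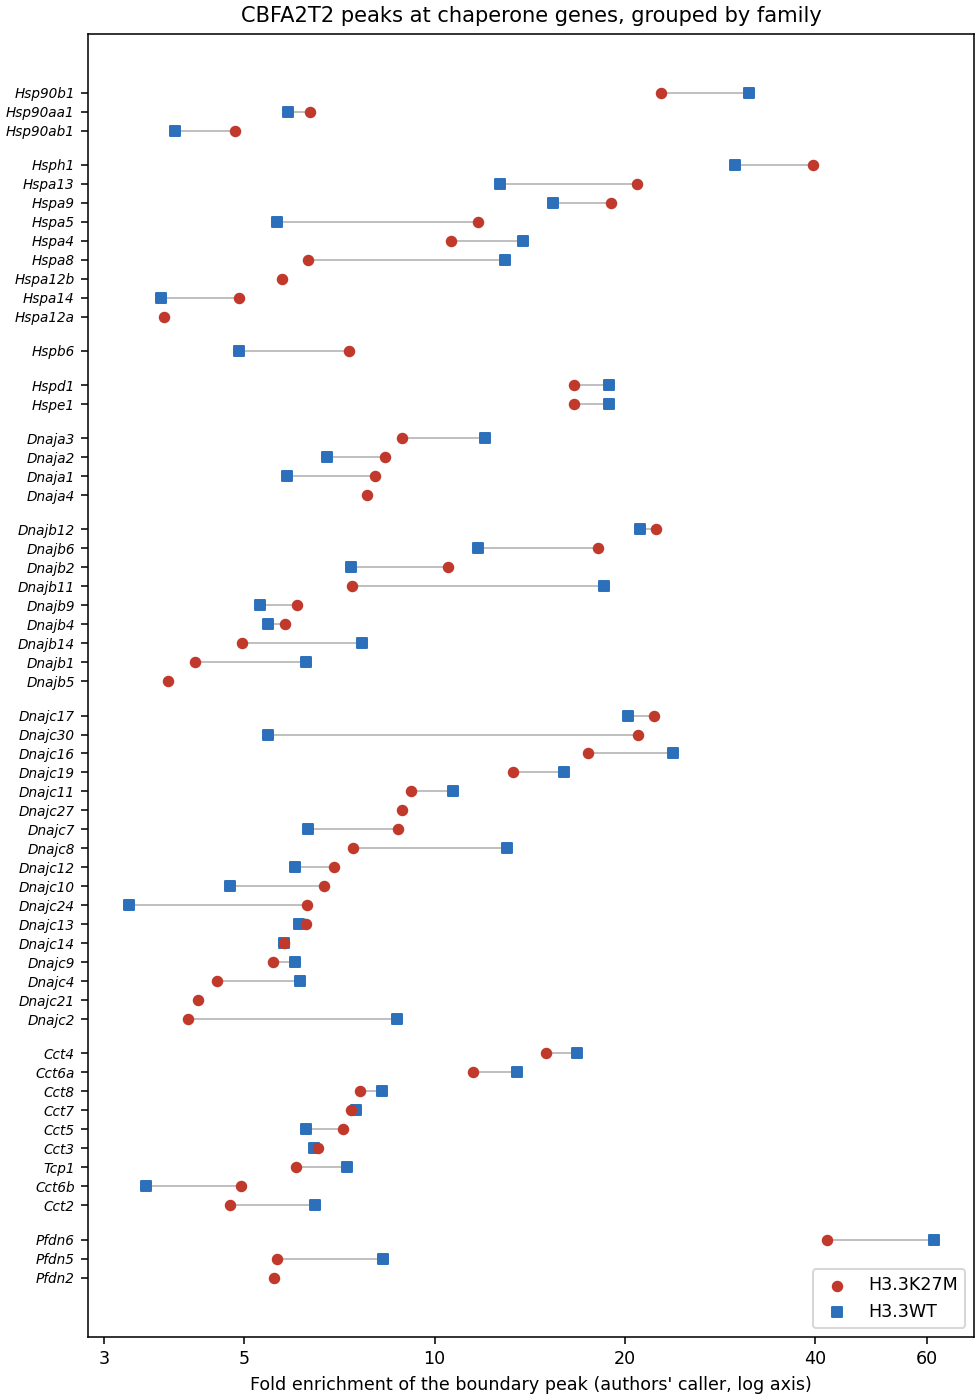
Fold enrichment (log axis, authors' caller) of the boundary peak at each of the 57 marked members, by family, for H3.3K27M (red circles) and H3.3WT (blue squares); a grey line joins both values of a gene. Pfdn6 and Hsph1 stand highest in H3.3K27M, the 7 genes with a red circle alone lie between 3.73 and 8.88 on that axis, and Dnajc30 has the longest line.

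Over the 50 members marked in both lists, fold was the higher in H3.3K27M at 26 (52.0%), against 46.6% of the 4857 genes marked in both. The lists differ in length and their depth is unknown, so the folds are set side by side and not divided. The highest 10% by fold held 13 of 63 distinct member peaks in H3.3K27M (20.6%, against 12.7% of all boundary peaks) and 11 of 54 in H3.3WT (20.4%, against 12.7%). Median folds of member peaks were 6.69 in H3.3K27M and 6.61 in H3.3WT, where all boundary peaks had 6.03 in H3.3K27M and 6.62 in H3.3WT. Of the 63 member peaks in H3.3K27M, 53 shared 1 bp or more with an H3.3WT peak, a share of 84.1% (Wilson interval at 95%, 73.2 to 91.1%) against 74.7% of all boundary peaks. Of the 54 in H3.3WT, 53 overlapped an H3.3K27M peak, 98.1% (90.2 to 99.7%) against 88.1%. The exception was an extra peak before Dnajc14. Summits of overlapping member peaks lay a median of 39 bp apart and at most 445 bp, at Hspa14. The intervals treat peaks of 1 library as independent and cover counting error only. They do not test a difference from all boundary peaks or between genotypes. Both counts of 53 are the same overlaps seen from each list.

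RefSeq start sites and strand were listed for 72 members. In all 47 of these that were marked in H3.3K27M, and all 40 in H3.3WT, a boundary peak lay within 1 kb of a listed start. Over all marked genes with a listed start the shares were 93.6% in H3.3K27M and 94.0% in H3.3WT. The summit nearest to a start was within 200 bp of it at 34 of the 47 members in H3.3K27M and 29 of the 40 in H3.3WT. It lay upstream at 27 members in each list. No share over all marked genes stands beside these counts, so they describe the members alone. Extremes were Hsp90b1 at -585 and Cct7 at 417 in H3.3K27M, and Hspb6 at -562 and Cct7 at 419 in H3.3WT. Hspa4l and Dnajc1 were unmarked by the 1 kb rule, with H3.3K27M summits 1092 bp from the end of Hspa4l and 1237 bp from that of Dnajc1. Their listed starts lie inside the annotated span, and those summits stood at -21 (3.93 fold) and -32 (5.37 fold) from them. Dnajc25 was likewise unmarked, with summits at -53 in H3.3K27M and -3 in H3.3WT from a listed start inside its span. The members nearest to the limit on its inner side were Dnaja4 at 741 bp in H3.3K27M and Hsp90ab1 at 669 bp in H3.3WT.

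**Figure D3:**
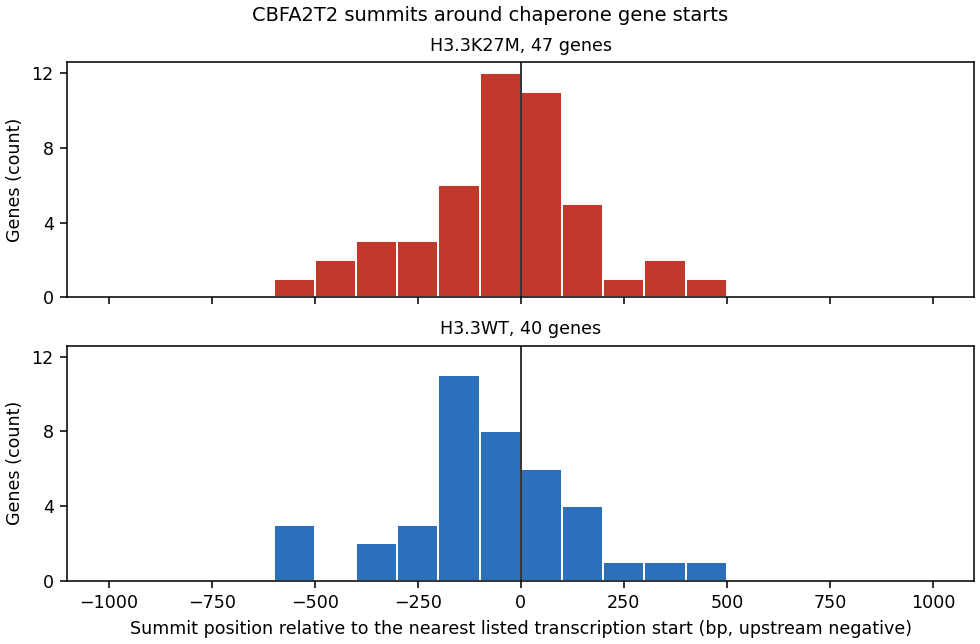
Number of members by position of the CBFA2T2 summit nearest to a listed transcription start, in bins of 100 bp with upstream negative, for H3.3K27M above (47 genes) and H3.3WT below (40 genes). Most summits lie within 200 bp of the start, 34 in H3.3K27M and 29 in H3.3WT, and none beyond -585 or 419.

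Many of these peaks lay near a gene pair. At 25 of 57 marked members in H3.3K27M (43.9%) and 24 of 50 in H3.3WT (48.0%), the summit was also within 1 kb of another protein-coding gene, against 35.7% of all marked genes in H3.3K27M and 37.6% in H3.3WT. At 16 of the 25 members in H3.3K27M and 11 of the 24 in H3.3WT, a boundary summit was closer to that neighbour than to the annotated end of the member. Some of these summits lie inside the member or closer to its listed start, as at Pfdn2. The peak lists alone do not assign such a peak to either gene. At Hspd1 the nearer neighbour is Hspe1, itself a member. How often a summit is nearer to the neighbour over all marked genes is not given here. Among the TRiC genes, neighbours lay at Cct3 (Tsacc), Cct5 (Atpsckmt), Cct6a (Psph and Sumf2), Cct6b (Zfp830) and Cct7 (Pradc1).

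CpG density of the promoter went with the marks. The ratio of observed to expected CpG in the 300 bases had a median of 0.877 at members marked in both lists (40 with a listed promoter), 0.841 at the 7 marked in H3.3K27M alone and 0.623 at the 25 with no boundary peak. Over all protein-coding genes the median was 0.61. Taking a ratio of at least 0.6 as CpG-rich, 45 of 58 CpG-rich members were marked in H3.3K27M (77.6%) and 39 in H3.3WT (67.2%). The shares over all genes with a CpG-rich promoter were 50.3% in H3.3K27M and 44.0% in H3.3WT. Without one, 2 of 14 members were marked in H3.3K27M and 1 in H3.3WT, against 8.13% of such genes in H3.3K27M and 6.64% in H3.3WT. Hspa12b (0.498) and Dnajc24 (0.565) were the exceptions. Among unmarked members the ratio was highest at Hspa4l (1.01), Dnajc3 (0.947) and Dnajc25 (0.935), and of these Dnajc3 had no summit near its listed start in either list.

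**Figure D4:**
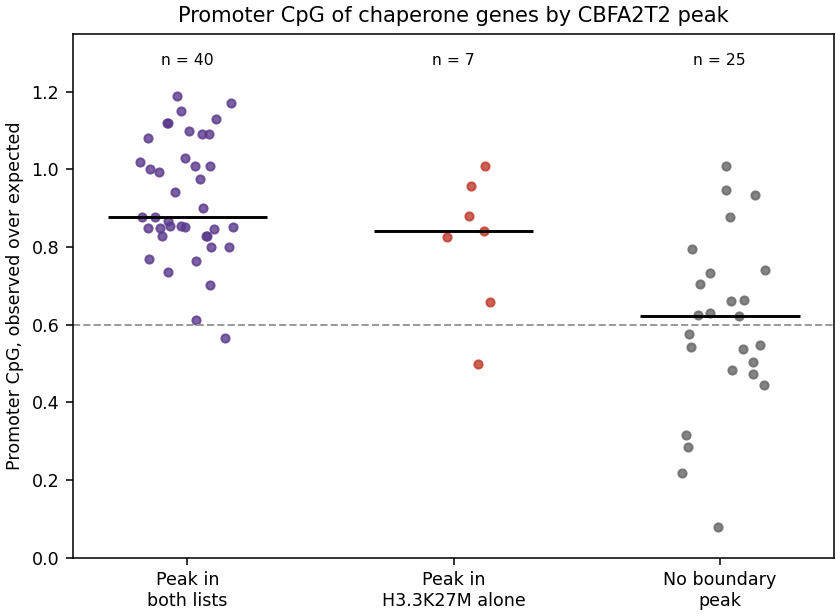
Ratio of observed to expected CpG in the listed promoter window (highest value where a gene has several) for members with a boundary peak in both lists, in H3.3K27M alone and in neither; bars are medians (0.877, 0.841 and 0.623) and the dashed line is the ratio of 0.6. Only Dnajc24 and Hspa12b lie under the line among the marked members.

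Motifs were counted in the same windows, on both strands. The heat shock element was searched as GAANNTTC and TTCNNGAA, which can overlap each other. At least 1 of them was present at 20 of 72 members (27.8%), against 15.7% of 17492 protein-coding genes with a listed promoter and 12.9% of CpG-rich ones. The share was alike with and without a CBFA2T2 peak, 13 of 47 marked members (27.7%) and 7 of 25 unmarked ones (28.0%). The inward form GAANNTTC was at 16 members (22.2%, against 8.44% of all genes and 6.65% of CpG-rich ones), 7 of them unmarked. The outward form TTCNNGAA was at 8 (11.1%, against 8.73% of all genes and 7.49% of CpG-rich ones), all marked. Hspd1 and Hspe1, whose matches are the same DNA under 1 peak, and the near-identical Hspa1a and Hspa1b are each counted separately. Marked examples are Hspd1, Hspe1, Hsph1, Dnaja1 and Dnajb6, and unmarked ones Hspa1a, Hspa1b, Hspb1 and Hspb8. The ETS core CCGGAAG was found at 15 of 47 marked members (31.9%) and 2 of 25 unmarked ones, Dnajc1 and Pfdn4, against 12.9% of all genes and 21.1% of genes with a CpG-rich promoter. Hspd1 and Hspe1 again count the same DNA separately. Unmarked here refers to gene ends, and Dnajc1 had an H3.3K27M summit at -32 from its listed start. The TCGCGA core of the BANP and ZBTB33 element was present at 6 of 47 marked members and 1 of 25 unmarked ones, against 3.81% of all genes and 6.88% of CpG-rich ones. GC boxes (GGGCGG) were common, at 38 of 47 marked and 16 of 25 unmarked members, with 76.5% in all CpG-rich genes.

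Of the other motifs, CCAAT was found at 30 of 72 members (41.7%, against 42.3% of all genes and 42.2% of CpG-rich ones). CACGTG was found at 6 (8.33%, against 8.91% of all genes and 12.9% of CpG-rich ones). The E-box CAGCTG, read by E proteins that bind MTG corepressors, was at 13 members (18.1%, against 17.4% of all genes and 16.5% of CpG-rich ones). The RUNX core TGTGGT was at 6 (8.33%, against 17.2% of all genes and 12.5% of CpG-rich ones). The CRE core TGACGT was at 10 (13.9%, against 9.60% of all genes and 14.4% of CpG-rich ones). The YY1 core AAGATGGC was at 3 members (4.17%, against 3.57% of all genes and 5.60% of CpG-rich ones). The NRF1 core GCGCATGCG was at 1, Cct5, against 2.61% of all genes and 4.78% of CpG-rich ones. A match of letters does not show binding, and no factor was measured in these windows other than CBFA2T2.

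The 31 members without a boundary peak are described here without a share over all unmarked genes beside them. Of the 31, 18 had no summit within 10 kb of the gene in either list, among them Hspb1, Hspa2, Dnajb8, Dnajc3, Dnajc15 and Pfdn1. A further 7 held a peak inside the gene in H3.3K27M, and 4 of them also in H3.3WT. These 4 were Dnajc18 (6.11 fold in H3.3K27M and 8.02 in H3.3WT), Dnajc25 (4.63 fold in H3.3K27M and 6.02 in H3.3WT), Dnajc5 (5.43 fold in H3.3K27M and 4.34 in H3.3WT) and Pfdn4. The other 3, with an internal peak in H3.3K27M, were Dnajc1, Hspa4l and Hspg2 (4.83 fold). Dnajb7 had its nearest summit, that of the St13 peak described next, 7023 bp away in H3.3K27M and 7013 bp in H3.3WT.

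Co-chaperones and partners of these machines were drawn from a list of 91 symbols, of which 89 were found in the annotation. Of these genes, 66 were marked in H3.3K27M (74.2%) and 60 in H3.3WT (67.4%), against 28.6% of all genes in H3.3K27M and 24.8% in H3.3WT. Both shares were above those of the 88 members, a difference that was not tested. The list follows no symbol rule and was set with earlier results of these data known. It also holds chaperones outside the member symbols, such as Trap1 and Hyou1. The Hsp90 group had 16 of 18 marked in H3.3K27M and 13 in H3.3WT, led by Ahsa1, which stimulates the Hsp90 ATPase, at 29.0 fold in H3.3K27M and 26.0 in H3.3WT. Hsp70 exchange factors and partners had 14 of 17 marked in H3.3K27M and 13 in H3.3WT, with St13, an Hsp70 cofactor, at 24.2 fold in H3.3K27M and 25.6 in H3.3WT and Bag5 at 9.77 fold in H3.3K27M and 21.1 in H3.3WT. Mitochondrial quality control had 7 of 9 in both lists, with the disaggregase Clpb at 28.6 fold in H3.3K27M and 28.0 in H3.3WT and the protease Htra2 at 17.7 fold in H3.3K27M and 30.1 in H3.3WT. Wdr92, a partner of the R2TP complex that assembles client complexes with Hsp90, had 29.4 fold in H3.3K27M and 29.3 in H3.3WT.

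Endoplasmic reticulum folding genes were marked at 10 of 11 in H3.3K27M and 7 of 11 in H3.3WT. Pdia6 (9.45 fold), Serpinh1 (5.81 fold) and Sdf2l1 (4.24 fold) had a peak in H3.3K27M alone. Others in H3.3K27M alone were Sugt1 (9.05 fold), Ptges3 and Pdrg1 (5.36 fold each), Fkbp5 (4.96 fold), Bag2 (4.87 fold), Unc45a (3.83 fold) and Ruvbl1 (3.38 fold). In H3.3WT alone were Hypk (6.30 fold), Tbca (5.92 fold), Tbce (4.65 fold) and Ahsa2 (3.27 fold). Of the 89 genes, 10 were thus marked in H3.3K27M alone (11.2%, against 6.39% of all genes) and 4 in H3.3WT alone (4.49%, against 2.60%). Partners of TRiC and prefoldin had 9 of 16 marked in H3.3K27M and 10 in H3.3WT, and nascent chain factors 3 of 5 in H3.3K27M and 4 in H3.3WT. Of the heat shock factor group, Hsf1 was marked at 11.3 fold in H3.3K27M and 6.0 in H3.3WT, and Hsbp1, an HSF1-binding protein gene, at 10.3 fold in H3.3K27M and 6.63 in H3.3WT. Hsf2, Hsf4 and Hsf5 had no boundary peak.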

How the data were processed

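CBFA2T2 ChIP-seq peaks came from 1 library per genotype, grouped by the genotype and antibody in the labels; the series' other libraries were not analysed here. Per the submitters' processing notes, Trim Galore and MACS2 were used on mm10, without versions. Which aligner was used, how duplicates were treated and how peaks were called in detail is not given in the sources used here. The authors' lists give, for each peak, a deposited score that was not used, fold enrichment, −log10 p-value and −log10 q-value. The lowest −log10 q was 1.31 in H3.3K27M and 1.33 in H3.3WT, so weaker sites are missing from the deposited lists. Depth is unknown.

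Genes, spans, strands and promoter windows came from RefSeq tables of GRCm38.p6. Coordinates are 1-based. Promoters were listed for 72 of the 88 members; the other 16 have no start or motif value. The 1 kb distance rule was checked on simulated peaks placed outside the lower-coordinate end of genes. Which of several genes a peak belongs to was not checked. The symbol rule for members uses no measured value, but the rule, the gene lists and the motifs were chosen with earlier results of these data known. Named genes were the 3 of highest fold per family, members marked in a single list, shared ends, unmarked TRiC and prefoldin genes, and the 6 leading or single-list co-chaperones; others were named after their values were seen. No test was made, since each genotype has 1 library. Python 3.11.15, pandas 2.3.3, NumPy 2.4.6 and SciPy 1.17.1 were used. Alternatives were a floor of 5 on −log10 q or on fold, equal list lengths, 500 bp and 3 kb windows, any part of a peak, listed starts alone and stricter overlaps.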

Additional observations from a re-analysis of the deposited data

How the results depend on the processing

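The numbers of members marked in H3.3K27M and in H3.3WT stayed within 1.5 times the reported ones under all 7 alternatives, from 47 to 62 in H3.3K27M and from 41 to 53 in H3.3WT. Members marked in both lists ranged from 39 to 53, and those in H3.3K27M alone from 5 to 9. Of the 7 reported in H3.3K27M alone, only Dnajc27 and Hspa12b stayed there in every setting. Dnajb5, Dnajc21 and Hspa12a dropped out with −log10 q or fold of at least 5, and Dnaja4 and Pfdn2 with a 500 bp window. Genes reported in both lists came in, among them Hsp90ab1 and Dnajc24 at both floors. At 500 bp these were Hsp90ab1, Hspb6, Cct3 and Hspa8. The count in H3.3WT alone, reported as 0, became 1 with −log10 q of at least 5 (Dnajb1), 5 with at least 5 fold (Cct2, Dnajb1, Dnajb14, Dnajc2 and Dnajc4) and 1 with a 500 bp window (Dnajc14). In each of these the gene's peak in H3.3K27M missed the stricter limit. With equal list lengths it was 0, and Dnaja4, Dnajc27, Hspa12a, Hspa12b and Pfdn2 were left in H3.3K27M alone. Shares over all genes moved with the limits, to 19.4% in H3.3K27M and 19.1% in H3.3WT at 5 fold and to 32.3% in H3.3K27M and 28.2% in H3.3WT with a 3 kb window. The count on listed starts used the 72 members that have one. Overlaps between the lists numbered 39 to 51 under the stricter criteria, against 53. No paired analysis was possible because each genotype has 1 library.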
